A study of Mus musculus with 16 samples.

Results

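The TRIM genes encode tripartite motif proteins, a family built on a RING domain, 1 or more B-box zinc fingers and a coiled coil. Members were taken by symbol, as genes named Trim followed by a digit, without Trim63, and with a mean count above 0 in the RNA table. This gave 58 genes of the 25239 in that table, and 55 of the 13083 peaks of N6-methyladenosine (m6A, a methyl group on adenosines inside RNA) lay in 32 of them. The samples were bone of wild type mice after ovariectomy, which removes the source of ovarian estrogen, or after a sham operation, with 4 input and 4 immunoprecipitated (IP) libraries per arm by their titles (NC for sham, OVX for ovariectomy). IP libraries hold RNA enriched by an m6A antibody, and input libraries hold RNA before that step. The treatment field reads ovariectomy for all 8 IP libraries, also the 4 titled NC, and the title was followed. No source used here gives age or strain, or says whether libraries came from separate animals, so p-values may measure technical spread only.

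Most TRIM proteins are ubiquitin ligases: the RING domain recruits a ubiquitin-loaded E2 enzyme, and a C-terminal domain such as SPRY, NHL or PHD-bromodomain binds the substrate. Many SPRY members are induced by interferon and either bind viral components or ubiquitylate the sensors of foreign RNA and DNA. Others act in chromatin silencing, in the sarcomere of muscle, or in red cell maturation, in cells that whole bone with its marrow and attached muscle can hold.

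Each table gives comparisons made by the authors without the values of single libraries, so no member's level can be shown per sample. In the RNA table, a fold change is a log2 value with its standard error (SE), a mean count is averaged over libraries after scaling and not divided by gene length, and a gene is called at an adjusted p under 0.05. The numerator of the fold changes is not stated, so signs are given as deposited, as positive or negative. All 10 bone cell markers were present, with mean counts of 482 to 99868 in the authors' deposited table, and muscle and red cell markers were abundant as well, so the samples were not pure bone. In bulk tissue, fewer cells of a type and less RNA per cell cannot be told apart.

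The promoters of the antiviral members show what several of them share in sequence, and they are given before the values. RefSeq promoters on GRCm38.p6 (250 bases before to 50 after a start) were at hand for 44 of the 58 genes. They were searched on both strands for the core of an element through which interferon acts, and matches could overlap. This core is GAAA, any 2 bases and GAAA again (TTTC, any 2 bases and TTTC on the other strand). It was found in 9 of these 44 genes (20.5%), against 1079 of all 27025 genes with a promoter (3.99%). Among members grouped as antiviral it was in 8 of 13 (61.5%), among the other members in 1 of 31 (3.23%), and in a list of interferon response genes in 8 of 15 (53.3%). The 30-base windows are written 5′ to 3′ on the gene's strand, with the match in capitals.
Trim34a (chr7:104244457-104244486, plus strand): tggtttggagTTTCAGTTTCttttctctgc
Trim5 (chr7:104288136-104288165, minus strand): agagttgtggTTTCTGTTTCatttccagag
Trim12a (chr7:104315466-104315495, minus strand): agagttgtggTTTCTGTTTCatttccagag
Trim12c (chr7:104353359-104353388, minus strand): agagttgtggTTTCTGTTTCatttccagct
Trim30a (chr7:104465210-104465239, minus strand): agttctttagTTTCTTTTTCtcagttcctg
Trim30d (chr7:104507871-104507900, minus strand): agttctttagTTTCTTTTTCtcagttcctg
Trim21 (chr7:102565450-102565479, minus strand): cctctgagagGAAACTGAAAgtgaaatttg
Trim26 (chr17:36836976-36837005, plus strand): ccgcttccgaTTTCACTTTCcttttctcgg
Trim5 and Trim12a shared 1 window over all 30 bases, as did Trim30a and Trim30d. The window of Trim12c differed from that of Trim5 and Trim12a only in its last bases. The matches within each of these sets thus belong to duplicated genes and are not independent of each other. Trim21 and Trim26 each held a second match that overlapped the first, and Trim30a held a match in a second annotated promoter too (chr7:104446104-104446133). The other member with a match was Trim2, which is not in the antiviral group. Of the 5 members with an RNA call and a promoter, 2 held a match, Trim34a and Trim26, and Trim25, Trim28 and Trim56 held none. The called members Trim8, Trim11, Trim14, Trim55 and Trim65 had no promoter at hand.

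The wider stretch of the Trim30a promoter, from 110 to 11 bases before the start, shows where the element lies.
Trim30a (chr7:104465204-104465303, minus strand): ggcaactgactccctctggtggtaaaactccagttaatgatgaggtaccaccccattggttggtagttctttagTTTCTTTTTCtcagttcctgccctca
Aligned to the same stretch of Trim30d, 95 bases were identical and 0 mismatched, the rest being an offset between the annotated starts. The STAT element TTCNNNGAA was found in 3 of 44 TRIM genes (6.82%) against 9.55% of all genes. Among antiviral members it was in 0 of 13, and in the list of interferon response genes in 4 of 15 (26.7%). The estrogen element (GGTCA, any 3 bases, TGACC) was in 0 of 44 TRIM genes, against 20 of 27025 genes. A match describes letters in these windows only.

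In the RNA, 10 of the 49 members with an adjusted p carried a call in the authors' deposited table, of which 9 were positive and 1 was negative. That is 20.4%, against 12.2% of all 15396 tested genes. By sign, the authors' deposited table holds 6.07% of all tested genes as positive calls and 6.11% as negative calls. The members' median fold change was 0.16 (median SE 0.17), and the median over all tested genes was -0.02, in the authors' deposited table. Of the 49 members 32 were positive (65.3%), against 46.7% of all tested genes. The share of calls differed with the mean count in the whole table, so the members were also counted within ranges of it. Between mean counts of 1000 and 10000, 7 of 24 members were called (29.2%) against 15.6% of all genes, and between 100 and 1000 3 of 18 (16.7%) against 11.4%, in the authors' deposited table. Below 100, 0 of 6 members were called, against 4.83% of all genes, and 0 of these 6 had an unadjusted p under 0.05.

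**Figure D1:**
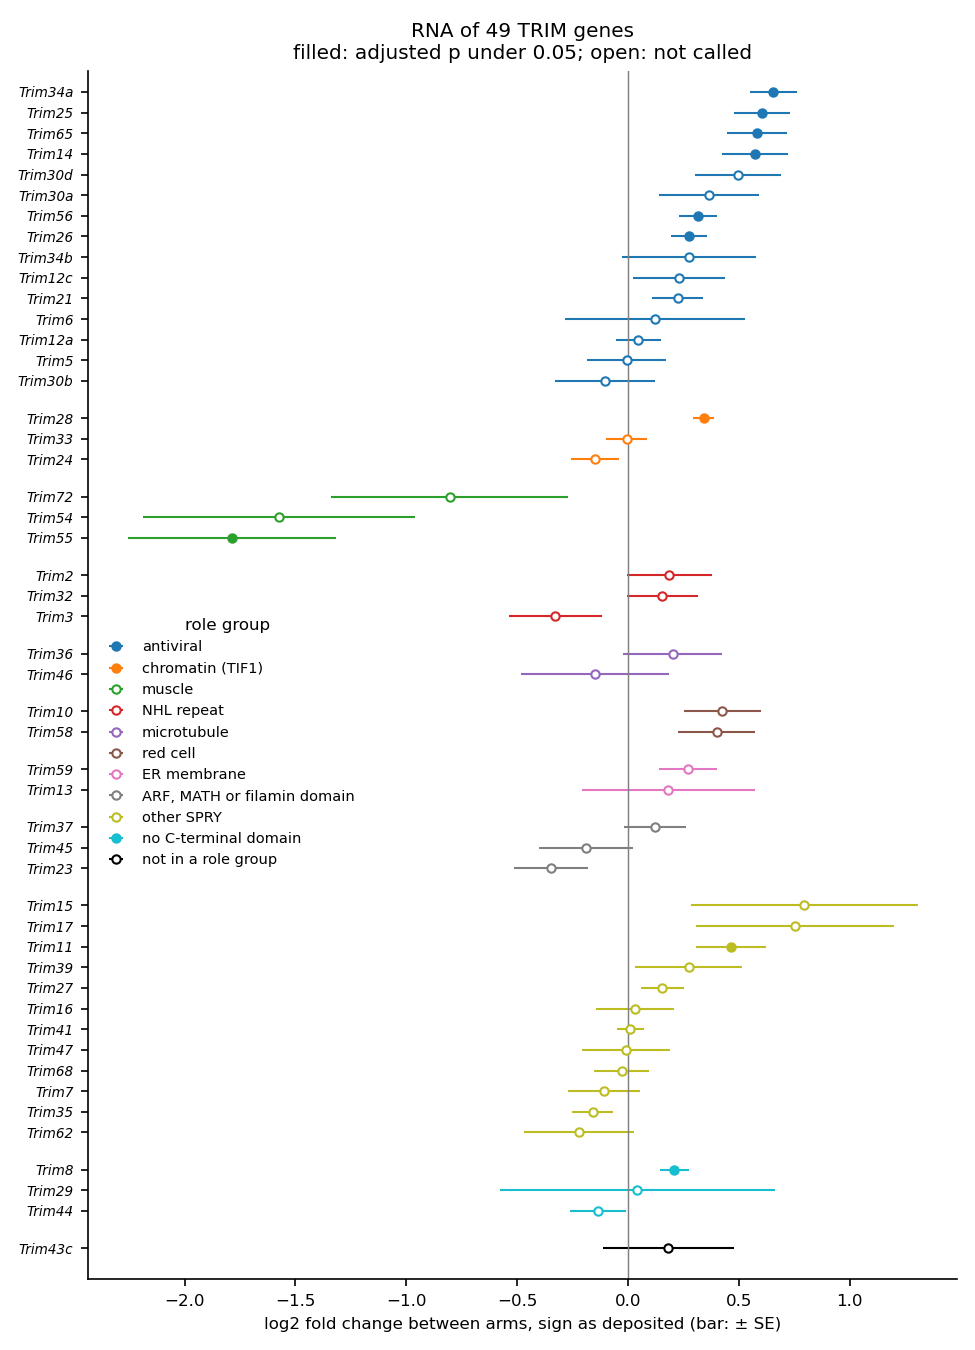
Log2 fold changes (x axis, sign as deposited) of the 49 TRIM genes with an adjusted p, ordered within role groups, with bars of ± 1 SE from the authors' deposited table. The 6 filled antiviral points all lie right of 0, the 3 muscle genes lie at -0.80 or below, and both red cell genes lie right of 0.

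**Figure D2:**
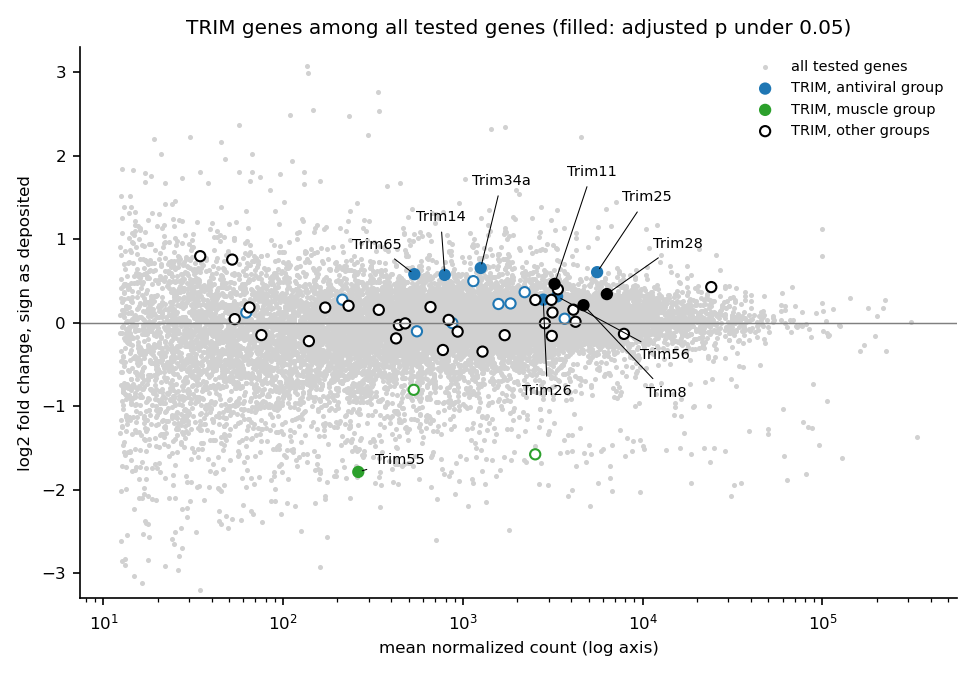
Log2 fold change against mean normalized count (log axis) for all tested genes (grey) and TRIM genes (circles, filled where called), with 17 genes beyond the y axis not drawn. The 9 positive calls lie at mean counts of 537 to 6318, and Trim55 is the 1 negative call.

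The antiviral group held most of the positive calls. Of its 15 tested members 13 were positive and 6 were called, all positive (40%), and the group's median was 0.28 in the authors' deposited table. The 34 tested members outside it had 4 calls, 3 positive and 1 negative, a share of 11.8% that is close to the 12.2% of all genes, and a median of 0.04. Trim34a, an interferon-inducible relative of the retrovirus restriction gene Trim5, had 0.66 ± 0.11 at a mean count of 1256 (adjusted p = 2.0e-07) in the authors' deposited table, a ratio of 1.57 between the arms. Trim25, which ubiquitylates the RNA sensor RIG-I, had 0.60 ± 0.12 at a mean count of 5577 (adjusted p = 9.9e-05) in the authors' deposited table. Trim65, a ligase for the RNA sensor Ifih1, had 0.58 ± 0.14 at a mean count of 537 (adjusted p = 0.00081) in the authors' deposited table. These 3 genes lay within 1 SE of each other.

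Trim14, a member without a RING domain that acts at the mitochondrial adaptor Mavs, had 0.57 ± 0.15 at a mean count of 792 (adjusted p = 0.0031) in the authors' deposited table. Trim56, linked to the DNA-sensing adaptor Sting, had 0.31 ± 0.08 at a mean count of 3340 (adjusted p = 0.0048) in the authors' deposited table. Trim26, which regulates interferon induction, had 0.28 ± 0.08 at a mean count of 2798 (adjusted p = 0.012) in the authors' deposited table. So 4 of the 6 calls lay between 0.57 and 0.66 and the other 2 near 0.3. Trim30d (0.50 ± 0.19, adjusted p = 0.070), Trim30a (0.37 ± 0.23, adjusted p = 0.308) and Trim21, the cytosolic antibody receptor (0.22 ± 0.11, adjusted p = 0.193), were not called in the authors' deposited table.

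Other genes of the interferon pathway were mostly positive too. Of 21 interferon response genes 13 were called, all positive (61.9%, against 12.2% of all tested genes). Their median was 0.75 in the authors' deposited table, higher than the median of the antiviral TRIM genes. Isg15, a ubiquitin-like protein induced by interferon, had 1.54 ± 0.20 in the authors' deposited table. Among 17 genes of RNA and DNA sensing 3 were called (17.6%, against 12.2% of all tested genes), all positive, led by the transcription factor Irf7 with 0.88 ± 0.24, beside a median of 0.19 in the authors' deposited table. Of 13 E2 enzymes that can serve RING ligases none was called (median -0.001), and the 1 with an unadjusted p under 0.05 was Ube2d1, which had -0.49 ± 0.18 (adjusted p = 0.058), in the authors' deposited table. All 12 B cell markers were also positive, with 11 called (91.7%) and a median of 1.10 in the authors' deposited table. Their part in the TRIM values was not tested.

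**Figure D3:**
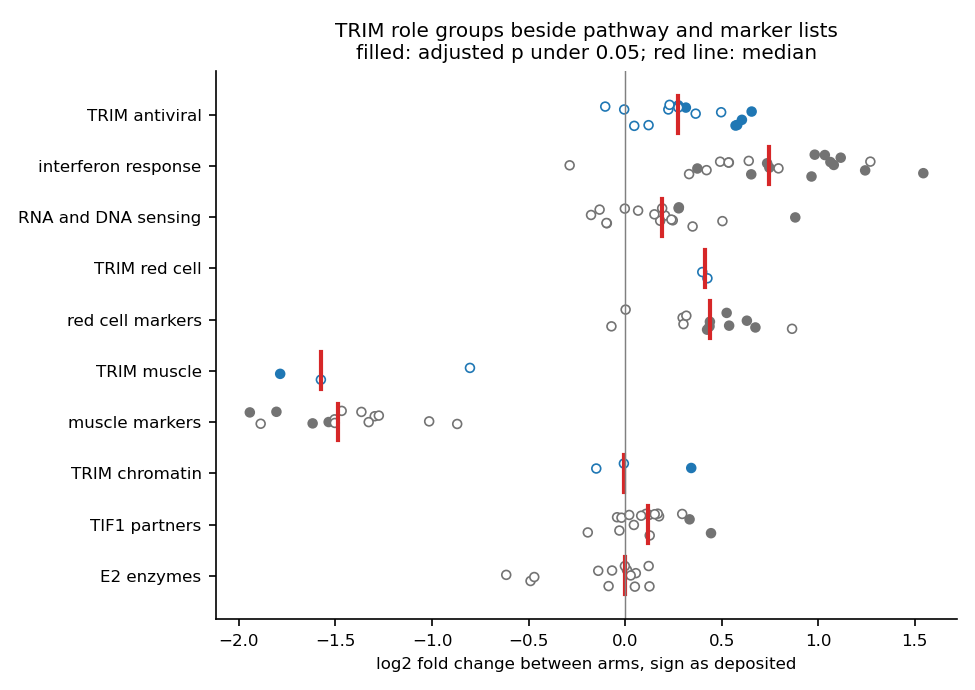
Log2 fold changes (x axis, sign as deposited) of TRIM role groups (blue) and pathway or marker lists (grey), 1 point per gene, filled where called, with a red line at the median. Of the 15 antiviral TRIM genes 13 lie right of 0, closer to it than interferon response genes (medians 0.28 and 0.75), and the muscle TRIM genes and muscle markers all lie left of 0 (medians -1.58 and -1.49).

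A cluster of TRIM genes on chromosome 7 holds the mouse relatives of Trim5, in the order Trim6, Trim34a, Trim5, Trim12a, Trim34b, Trim12c, Trim30b, Trim30a and Trim30d by RefSeq GRCm38.p6. Of these 9 tested genes 1 was called, Trim34a (11.1%, near the 12.2% of all tested genes). Its duplicate Trim34b had 0.28 ± 0.30 in the authors' deposited table, with a 95% interval of -0.31 to 0.87 that overlaps the 0.45 to 0.86 of Trim34a, so a difference between the copies is not shown. Trim5 had -0.005 ± 0.178, Trim12a 0.05 ± 0.10, Trim12c 0.23 ± 0.21 and Trim30b -0.10 ± 0.22 in the authors' deposited table, none of them called. Of the 6 genes in this cluster whose windows are shown above, Trim34a was the 1 with a call. Reads can be split between near-identical copies, and how the authors counted them is not given, so the values of the Trim12, Trim30 and Trim34 genes are uncertain.

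**Figure D4:**
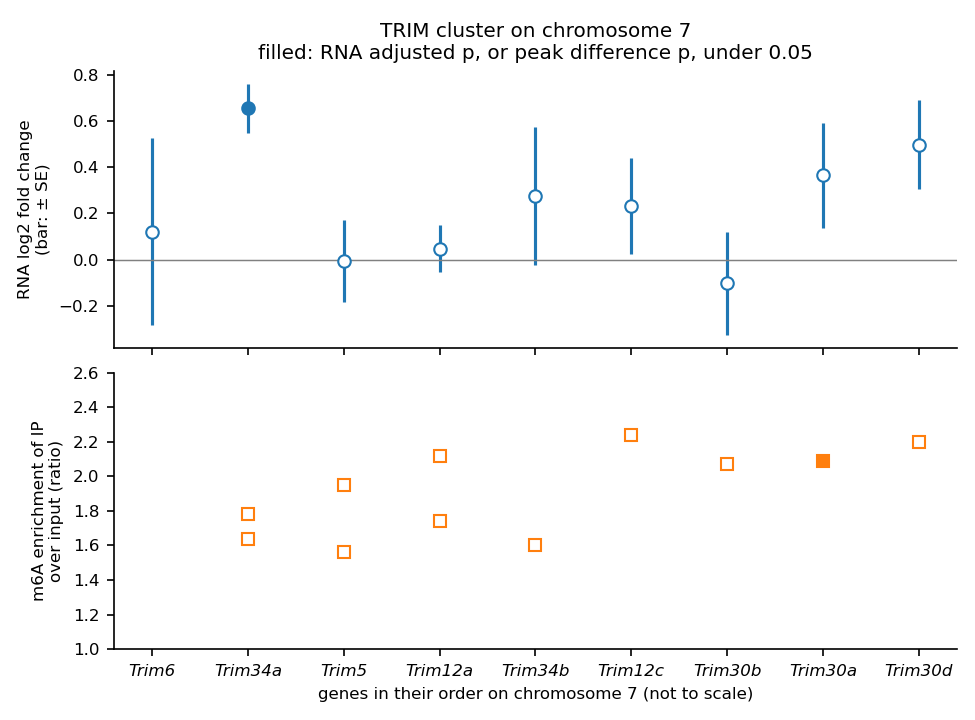
Upper panel, RNA log2 fold change (± SE, sign as deposited) of 9 TRIM genes in their order on chromosome 7. The lower panel gives the m6A enrichment of each of their 11 peaks; Trim34a is the 1 gene filled for RNA and Trim30a the 1 filled for a peak difference.

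The chromatin members bear a PHD finger and a bromodomain. Trim28, the corepressor that zinc finger proteins recruit to silence retroelements, had the smallest p of all members, with 0.34 ± 0.05 at a mean count of 6318 (adjusted p = 2.5e-10, rank 21 of all 15396 tested genes) in the authors' deposited table. The size was modest, a ratio of 1.27, and its SE was the smallest of the tested members. Its relatives were not called. Trim24, a nuclear receptor cofactor, had -0.15 ± 0.11 (adjusted p = 0.396) and Trim33, which acts on Smad4, had -0.01 ± 0.09 (adjusted p = 0.975) in the authors' deposited table. The 95% interval of Trim28, 0.25 to 0.43, did not overlap those of Trim24 (-0.36 to 0.06) and Trim33 (-0.19 to 0.17), and the difference itself was not tested. Among 16 partners of these proteins 2 were called (12.5%, near the 12.2% of all tested genes), both positive, Tal1 with 0.44 ± 0.13 and Trp53 with 0.33 ± 0.11, in the authors' deposited table.

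The 3 muscle members carried the lowest fold changes of the 49 members with an adjusted p. Trim55, a ligase of the sarcomere, had -1.79 ± 0.47 at a mean count of 262 (adjusted p = 0.0037) in the authors' deposited table, a ratio of 0.290. Trim54, its partner at the microtubules of muscle, had -1.58 ± 0.61 in the authors' deposited table (adjusted p = 0.070). Trim72, which repairs the muscle membrane, had -0.80 ± 0.53 in the authors' deposited table (adjusted p = 0.349). Their SEs, 0.47 to 0.61, were wide beside the members' median of 0.17. Trim63, the sarcomere ligase left out by the rule, had -2.48 ± 0.60 (adjusted p = 0.0013) in the authors' deposited table. All 14 muscle markers were negative, from -1.94 to -0.87 with a median of -1.49. Of these markers 4 were called (28.6%, against 12.2% of all tested genes) in the authors' deposited table. The values of Trim55 and Trim54 thus lay inside the range of the muscle markers and that of Trim72 just above it, and the part of muscle in them was not tested.

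The 2 red cell members were positive and not called, each with an unadjusted p under 0.05. Trim10, needed for terminal red cell maturation, had 0.43 ± 0.17 at a mean count of 24065, the highest of the family (adjusted p = 0.085) in the authors' deposited table. Trim58, which helps late red cell precursors lose their nucleus, had 0.40 ± 0.17 in the authors' deposited table (adjusted p = 0.113). Both sat near the median of 13 red cell markers, 0.44, in the authors' deposited table. Of these markers 12 were positive and 7 called (53.8%, against 12.2% of all tested genes). The part of red cells was not tested.

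Among the remaining members 2 were called. They were 1 of the 12 tested SPRY members in no other role group (8.33%) and 1 of 3 without a C-terminal domain. The share over all tested genes was 12.2%. Trim11, a SPRY ligase, had 0.46 ± 0.16 at a mean count of 3234 (adjusted p = 0.034) and Trim8, a regulator of cytokine signalling without a C-terminal domain, had 0.21 ± 0.07 at a mean count of 4684 (adjusted p = 0.019) in the authors' deposited table. Trim41 (0.01 ± 0.06) and Trim44 (-0.13 ± 0.13), the members of these 2 groups with the highest mean counts, were not called in the authors' deposited table. The 95% interval of Trim41, -0.11 to 0.13, was the narrowest of the tested members after that of Trim28. The 12 tested SPRY members that fall in no other role group had 7 positive and 5 negative values, from -0.22 to 0.80, in the authors' deposited table. Of the NHL members Trim2, Trim3 and Trim32 none was called, and Trim3 had the smallest p, with -0.33 ± 0.21 (adjusted p = 0.325), in the authors' deposited table.

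Of the ER-anchored members Trim59 had 0.27 ± 0.13 (adjusted p = 0.164) and of those with an ARF, MATH or filamin domain Trim23 had -0.35 ± 0.17 (adjusted p = 0.162) and Trim37 0.12 ± 0.14 (adjusted p = 0.617) in the authors' deposited table. None of these 5 genes, which include Trim13 and Trim45, was called, and Trim59 and Trim23 had an unadjusted p under 0.05 (0.038 and 0.037). Of the microtubule members Trim36 had 0.20 ± 0.22 in the authors' deposited table, and Trim9 had no adjusted p. In all, 9 members had no adjusted p, from the pseudogene Trim30e-ps1 at a mean count of 0.338 up to Trim9 at 12, and 9 further symbols, among them Trim38 and Trim71, stood at 0 and fell outside the rule. Of 5 family members with other names or left out by the rule, 2 were called (40%, against 12.2% of all tested genes), with opposite signs. They were Pml, with 0.46 ± 0.11, and Trim63, given above, in the authors' deposited table. Mid2 (-0.59 ± 0.33), Mid1 (-0.05 ± 0.26) and Mefv (-0.04 ± 0.20) were not called there.

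Peaks of m6A were found in 32 of the 49 tested members (65.3%), against 44.3% of all tested genes. Peak detection went with the mean count. Between 1000 and 10000, 21 of 24 members had a peak (87.5%, against 64.7% of all genes there). Between 100 and 1000 it was 9 of 18 (50% against 35.0%), and below 100 it was 1 of 6 (16.7% against 6.32%). In the antiviral group, with a median mean count of 1256, 12 of 15 tested members had a peak (80.0%). In the NHL group it was 0 of 3 and in the microtubule group 0 of 2, at median mean counts of 660 and 153. These groups are small and differ in mean count too, and a link between role and peaks was not tested. Of the 32 genes 17 had 1 peak (53.1%, against 53.8% of all genes with a peak), 10 had 2, Trim26, Trim44 and Trim56 had 3, Trim24 had 4 and Trim33 had 5. Of the 15 members with 2 or more peaks, 8 held peaks of equal log10 p against input (53.3%, against 40.6% over all such genes). Whether such peaks were detected separately is not given. Trim28, Trim65, Trim14 and Trim11 had a called RNA change and no peak, so 6 of the 10 called members had one (60.0%), and 26 of the 39 not called (66.7%). Over all genes, 50.6% of the called and 43.5% of those tested and not called had a peak.

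Enrichment of IP over input in the members' peaks ran from 1.17 to 3.46, with a median of 1.74 against 1.82 over all peaks in the authors' deposited table. An enrichment of at least 2 was reached by 17 of 55 peaks (30.9%), against 37.3% of all peaks. The 20 peaks of antiviral members had a median of 2.07 and 11 of them reached 2 (55.0%), and the 35 peaks of other members had a median of 1.67 and 6 reached 2 (17.1%), in the authors' deposited table. Peak positions are as the authors gave them, on a mouse build that is not named. The strongest peak lay in Trim24 (chr6:37965802-37966001, plus strand), at 3.46, above 98.6% of all peaks in the authors' deposited table. Next came Trim56 (chr5:137111386-137111635, minus strand) at 2.74, Trim41 (chr11:48816152-48816449, minus strand) at 2.57 and Trim25 (chr11:89004744-89010937, plus strand, 3 exon blocks) at 2.39 in the authors' deposited table. The members' peaks covered a median of 150 exonic bases, and 26 of 55 spanned at least 2 exon blocks (47.3%, against 40.1% of all peaks).

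**Figure D5:**
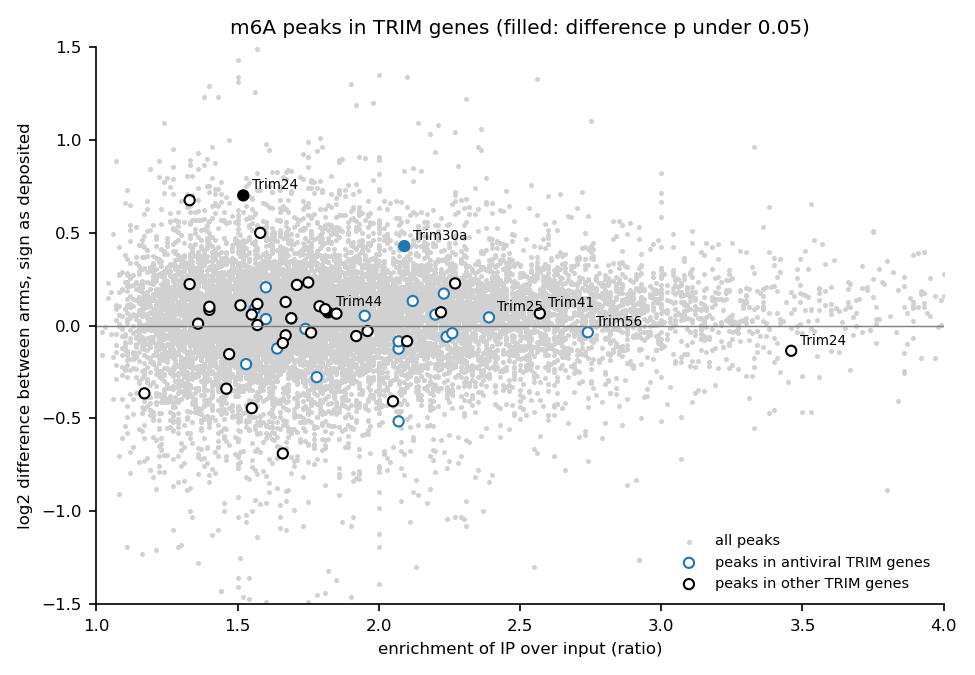
Log2 difference of m6A enrichment between the arms (y axis, sign as deposited) against enrichment of IP over input (x axis) for all peaks (grey, 67 beyond the axes not drawn) and peaks of TRIM genes (circles, filled at a difference p under 0.05). The 3 filled points, in Trim24, Trim30a and Trim44, lie above 0, and the strongest peaks of Trim24, Trim56, Trim41 and Trim25 lie near 0.

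Differences in m6A between the arms were few. Of the 55 peaks 3 had a difference p under 0.05 (5.45%), against 4.92% of all peaks, a share near the background. All 3 were positive, and positive ones made up 3.6% of all peaks. None had a false discovery rate (FDR) under 0.05. The peak of Trim30a (chr7:104429219-104430198, minus strand, 201 exonic bases in 2 blocks) had a log2 difference of 0.43 at an enrichment of 2.09 in the authors' deposited table. Its p of 3.0e-05 (FDR 0.066) ranked 6 of all 13083 peaks in the authors' deposited table. That rank counts a Kif21b peak given with a difference p of 0 at a log2 difference of only 0.05. Trim30a restrains NF-kB signalling downstream of Toll-like receptors, and its RNA was not called (0.37 ± 0.23). The authors' deposited table gives peak differences of 0.06 for its copy Trim30d and -0.52 for Trim30b, neither with a p under 0.05. Reads can be split between these copies in the peaks too, so a difference particular to Trim30a is not shown.

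The second was the first of 4 peaks in Trim24 (chr6:37908237-37915187, plus strand), with 0.70 (p = 0.0079, FDR 0.670) in the authors' deposited table. The strongest Trim24 peak had -0.14 (p = 0.079), so the peaks of this gene did not share a sign in the authors' deposited table. The third lay in Trim44 (chr2:102400155-102400403, minus strand), with 0.07 (p = 0.044, FDR 0.985) in the authors' deposited table, below the members' median absolute difference of 0.10. Over all 55 peaks 32 differences were positive (58.2%, against 60.6% of all peaks), and the median was 0.04, against 0.05 over all peaks in the authors' deposited table.

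For the called members with peaks, RNA and m6A values stand side by side. Neither table says which libraries entered it, and the comparisons may share input libraries. The 2 peaks of Trim34a (0.66 in RNA) differed by -0.12 and -0.28, per the authors' deposited table. The 1 peak of Trim25 (0.60 in RNA) differed by 0.04 and that of Trim8 (0.21 in RNA) by 0.09, per the authors' deposited table. Trim56 had -0.04, 0.17 and -0.09, and Trim26 had -0.21, -0.04 and 0.04 in the authors' deposited table. Trim55, with -1.79 in RNA, had -0.09 in the authors' deposited table. None of these 11 peaks had a difference p under 0.05.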

How the data were processed

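The members, gene lists and tests were chosen with earlier results of these data known. Per the submitters' processing notes, HISAT2, StringTie, DESeq and the rat build rn6 were used, without versions or roles, although the samples are mouse. The peak caller, its genome build and pooling of replicates were not given in the sources used here. Per the labels' protocols, libraries were stranded and carried molecular identifiers. Per the file headers, the authors deposited for each gene a signal (counts over size factors, averaged), the log2 fold change and its SE, the Wald score, and p-values before and after adjustment. For each peak they deposited a p-value, its log10 and log10 FDR, the ratio of IP over input, and a log2 difference between the arms with log10 p and FDR (a score). The depth of single libraries is unknown, so no count model was fitted. No test was added here: calls are the authors' adjusted p under 0.05 over 15396 genes, which Benjamini-Hochberg adjustment gave again, and a difference p under 0.05 for peaks. Peak starts, counted from 0 in the file's BED layout, were moved by 1. Intervals of 95% are the fold change ± 1.96 SE. Promoters came from RefSeq (GRCm38.p6). All called members were named, and in role groups with fewer than 2 calls the member with the smallest p and the one with the highest mean count. For peaks, all with a difference p under 0.05 and the 4 of highest enrichment were named. Other members were named to account for their group. Scripts ran on Python 3.11.15 with numpy 2.4.6, pandas 2.3.3, matplotlib 3.10.9 and Biopython 1.88, and the adjustment was tested on simulated data.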

Additional observations from a re-analysis of the deposited data

How the results depend on the processing

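The 10 RNA calls stayed within 1.5 times that number in the following settings, each with the share over all genes in brackets. At an adjusted p under 0.01 it was 7 of 49 (5.73%), and under 0.1 it was 13 of 49 (17.7%). With p-values adjusted again over genes with a mean count of at least 50 it was 10 of 48 (13.9%). Adjusted again over all genes it was 10 of 58 (9.13%). Without near-identical copies, a setting chosen after seeing the data, it was 9 of 40 (12.2%). An unadjusted p under 0.05 gave 17 of 49 members, against 25.7% of all genes, and an added limit of 0.5 on the absolute log2 fold change left 5 (4 positive and 1 negative), against 6.37% of all genes. The median fold change lay between 0.14 and 0.18 in all settings. Relative to the median of all genes, 35 members were positive and 14 negative. Members with a peak numbered 32 of 58, against 35.9% of all genes with a mean count above 0. At a stricter FDR they numbered 31 of 58 (33.9% of all genes), and without copies 24 of 47 (35.9%). Counting only peaks with an enrichment of at least 2, they numbered 15 of 58 (17.7%). Peak differences numbered 3 of 55 (4.92% of all peaks), and 2 of 55 at p under 0.01 (1.44%). Among peaks with an enrichment of at least 2 they numbered 1 of 17 (4.85%). At FDR under 0.05 they numbered 0 of 55 (0.023%). Leaving out libraries was not run, as the tables give no values of single libraries. No paired analysis was possible because the tables hold no column for a single library.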
